A study of Mus musculus with 6 samples.

Results

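The genes described here are the 33 genes that carry the lipopolysaccharide (LPS) signal of a macrophage from the receptor complex to the transcription factor NF-kB, together with the inhibitors that end it. They were taken by name from a written list and were found by their current symbol in the expression table, so that 33 of 33 were measured among 25206 genes. The table covers alveolar macrophages, which patrol the air sacs, washed out of the lungs of unchallenged mice by lavage and not sorted further. There were 3 arrays of Zcchc6-/- macrophages and 3 arrays of Zcchc6+/+ macrophages, each from total RNA on Affymetrix Mouse Gene ST arrays. Zcchc6-/- mice lack a working copy of the RNA uridyltransferase Zcchc6 in all cells, because exons 16 and 17 were removed in the germline by Cre under the ubiquitous EIIa promoter, and the Cre transgene was then bred out. Zcchc6+/+ mice carry the intact gene. The study used male and female mice of 8 to 16 weeks, without giving sex or age for each array. The labels do not say that the replicates are separate mice, and p-values therefore measure the spread between these arrays, which may be technical in part.

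LPS of Gram-negative bacteria is handed by CD14 to the receptor TLR4 and its partner MD-2, the product of Ly96. From there 1 branch runs through the adaptors TIRAP and MyD88 to the IRAK kinases, the ubiquitin ligase TRAF6 and the kinase TAK1 (Map3k7), which activates the IkB kinase complex. The other branch runs through TRAM (Ticam2) and TRIF (Ticam1) to TRAF3 and the kinase TBK1. The IkB kinases mark IkB proteins for destruction, and NF-kB dimers then enter the nucleus. Several brakes on the pathway, among them IkB-alpha (Nfkbia) and A20 (Tnfaip3), are themselves induced by NF-kB. Alveolar macrophages meet inhaled microbes first, and the study asked whether loss of Zcchc6 changes their resting transcriptome.

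Because several members are both parts and targets of the pathway, their promoters were searched for the motif that NF-kB binds. RefSeq promoter windows (GRCm38.p6, 250 bases before to 50 bases after the transcript start) were matched for 25 of the 33 members. The general kB consensus, which is GGG, a purine, a pair of free bases, a pair of pyrimidines and CC, was searched on both strands, and a gene was counted once however many of its matches overlapped. At least 1 match lay in the windows of 11 of these 25 members (44.0%), against 9.55% of all 27025 genes with a window. Among members commonly listed as NF-kB targets the count was 7 of 10, and among the others it was 4 of 15. Member windows were richer in G and C, with a median of 61.0% against 52.7% over all windows. Among genes with a window at or above that member median, the motif was found in 14.3% of all genes and in 8 of 16 members. A match is a string of letters and does not show that NF-kB binds there. The sites shown are 1 from each of the 7 NF-kB target members with a match and, for contrast, that of Traf3, which is not counted as a target. The motif is in capitals, and each sequence runs 5′ to 3′ on the strand of the gene, so that for Nfkbia and Tnfaip3 the consensus reads on the opposite strand.
Nfkbia, IkB-alpha, chr12:55492657-55492686, minus strand: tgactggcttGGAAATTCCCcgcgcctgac
Nfkbie, IkB-epsilon, chr17:45555584-45555613, plus strand: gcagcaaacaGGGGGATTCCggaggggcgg
Bcl3, a nuclear IkB protein, chr7:19822734-19822763, minus strand: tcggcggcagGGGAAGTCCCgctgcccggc
Tnfaip3, A20, chr10:19015403-19015432, minus strand: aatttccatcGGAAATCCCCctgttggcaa
Tnip1, a partner of A20, chr11:54962978-54963007, minus strand: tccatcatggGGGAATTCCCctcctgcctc
Rel, the subunit c-Rel, chr11:23771042-23771071, minus strand: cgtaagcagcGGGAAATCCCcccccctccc
Nfkb2, the subunit precursor p100, chr19:46304688-46304717, plus strand: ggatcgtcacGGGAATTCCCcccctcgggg
Traf3, chr12:111166350-111166379, plus strand: ggcggcccgcGGGGATTTCCagcgcgcgag
The Nfkbia motif starts 29 bases before the transcript start, that of Nfkb2 39 bases before it and that of Traf3 10 bases before it. The letters near the start were thus found in a member outside the target list too.

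The values are log2 intensities made by the authors with the Robust Multiarray Average (RMA), 1 per gene and array. They lay between 0.35 and 13.07, with a median of 4.4 over genes, and array medians of 4.36 to 4.45. Zcchc6 itself (Entrez Gene 214290) had 8.22, 7.69 and 8.13 in Zcchc6-/- arrays against 8.72, 8.77 and 8.65 in Zcchc6+/+ arrays. Its log2 fold change was -0.70 (limma, SE 0.15, adjusted p = 0.774), so the targeted gene itself was not called. This single value per array does not tell whether its probes lie in the deleted exons. All 17 measured alveolar macrophage markers were bright, with Zcchc6+/+ means of 9.13 to 12.15, so the labelled cell type is borne out. The genotypes did not overlap for 6 of these 17 (35.3%, background 10.2%), with 5 lower and 1 higher in Zcchc6-/- arrays. None of the 17 passed an adjusted p under 0.05 in limma. Zcchc6-/- replicate 1 stood apart from the other arrays. Its mean correlation with the others was 0.982, against 0.987 to 0.990 for the rest. The interquartile range of its differences from each gene's median was 0.27. That range was 0.23 in Zcchc6-/- replicate 2 and 0.15 to 0.18 in the others. Its limma array weight was 0.45, the lowest, followed by 0.64 for Zcchc6-/- replicate 2. Of 19 T cell markers 18 were highest there, and the mean log2 level of the list was 6.90 in that array, 4.31 and 4.44 in the other Zcchc6-/- arrays, and 4.18 to 4.69 in the Zcchc6+/+ arrays. The plot of fold changes gives each member with and without this array, and the text gives both values where leaving it out moves the result most. Xist, which marks female cells, was at 3.27 in Zcchc6-/- replicate 2 and 3.78 in Zcchc6+/+ replicate 1 and at 10.04 or more in the others. Ddx3y, a gene of the Y chromosome, was at 6.87 and 6.59 in these arrays and at 2.28 to 2.96 in the others. Each genotype thus held 1 array with low Xist and high Ddx3y, the male pattern.

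At rest all 33 members had a mean signal above the median gene, with Zcchc6+/+ means of 5.24 for Nfkbiz to 9.53 for Rela. Above that median also lay 10 of 19 T cell markers. A signal above it in unsorted cells therefore does not show that macrophages express a gene. Signals of different genes depend on their probes, so no order of abundance is drawn from them. No member passed the test between genotypes. Of the 33 members, 0 passed an adjusted p under 0.05 in limma (background 0.0% of 25206 genes), 0 passed an adjusted p under 0.25, and 0 had an unadjusted p under 0.05 (background 5.03%, with 2.5% higher and 2.53% lower). The adjusted p-values ran from 0.997 to 0.999. The genotypes did not overlap for 1 member, or 3.03%, against a background of 10.2%, with 5.03% higher and 5.15% lower. That member, Nfkbiz, was higher in Zcchc6-/- macrophages.

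The intervals of the fold changes give the sizes that these 6 arrays leave possible. The log2 fold changes, Zcchc6-/- minus Zcchc6+/+, ran from -0.43 to 0.28, with a median of -0.053 (all genes, -0.0063). The median standard error (SE) was 0.11. The 95% interval lay inside a 2-fold change either way for 32 of 33 members (background 96.4%, and 97.1% among genes above the median signal) and inside a 1.5-fold change for 31 of 33 (background 77.1% and 81.9%). The exceptions were Ly96, whose interval of -1.10 to 0.23 reached below a 2-fold decrease, and Ikbke, whose interval of -0.25 to 0.81 reached past a 1.5-fold increase. These intervals hold for each gene alone and are not adjusted for their number.

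**Figure D1:**
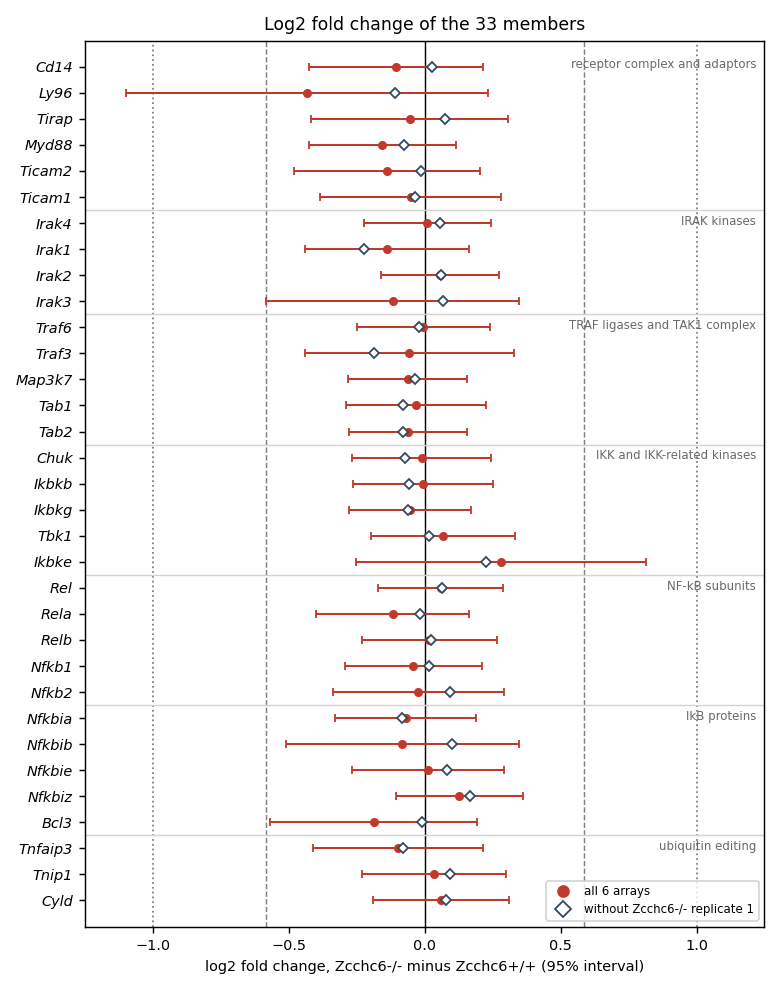
Log2 fold change of each member, Zcchc6-/- minus Zcchc6+/+, on the horizontal axis (3 arrays per genotype), with genes grouped by role on the vertical axis. Filled points with bars are the limma estimate and its 95% interval over all 6 arrays, open diamonds the estimate without Zcchc6-/- replicate 1, and the dashed and dotted lines mark 1.5-fold and 2-fold changes. All 33 intervals include 0, and the longest, that of Ly96, runs from -1.10 to 0.23.

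The receptor complex and its adaptors showed the widest spread among Zcchc6-/- arrays. The median SD of these 6 genes was 0.23 in Zcchc6-/- and 0.12 in Zcchc6+/+ macrophages, against 0.16 and 0.12 over genes above the median signal. All 6 had a lower mean in Zcchc6-/- macrophages, and none passed. Ly96 (Entrez Gene 17087), which encodes the LPS-binding protein MD-2, had 7.68, 8.80 and 8.52 in Zcchc6-/- arrays against 8.70, 8.54 and 9.07 in Zcchc6+/+ arrays. Zcchc6-/- replicate 1 alone was low, and the other Zcchc6-/- arrays fell within or just under the Zcchc6+/+ range. The log2 fold change of Ly96 was -0.43 (limma, SE 0.29, adjusted p = 0.997), and -0.11 without Zcchc6-/- replicate 1.

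Cd14, the coreceptor that delivers LPS, followed the same pattern. It had 8.97, 9.36 and 9.35 in Zcchc6-/- arrays against 9.41, 9.23 and 9.36 in Zcchc6+/+ arrays. Its log2 fold change was -0.11 (limma, SE 0.14, adjusted p = 0.998) and 0.024 without Zcchc6-/- replicate 1, so its sign rests on that array. Myd88, the adaptor shared by most Toll-like receptors and the interleukin-1 receptor, had 8.89, 9.21 and 9.07 in Zcchc6-/- arrays against 9.14, 9.24 and 9.27 in Zcchc6+/+ arrays. The genotypes overlapped by 1 array, and the log2 fold change was -0.16 (limma, SE 0.12, adjusted p = 0.997), or -0.075 without Zcchc6-/- replicate 1. Ticam2, the bridging adaptor TRAM of the TRIF branch, had 6.85, 7.31 and 7.13 in Zcchc6-/- arrays against 7.26, 7.08 and 7.36 in Zcchc6+/+ arrays. Again a single array was low, and the log2 fold change of -0.14 became -0.015 without it. Tirap, which brings MyD88 to the membrane, and Ticam1, which encodes TRIF, had log2 fold changes of -0.057 and -0.053, or 0.075 and -0.038 without Zcchc6-/- replicate 1.

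Zcchc6-/- replicate 1 was thus the lowest of the 6 arrays for 5 of the 6 receptor and adaptor genes, all but Ticam1. It was the lowest for 13 of 33 members, or 39.4%, against a background of 25.8% of all genes and 30.0% of genes above the median signal. With the array medians centred these counts were 5 of 6 and 14 of 33, and with a second quantile normalization 5 of 6 and 12 of 33. The mean of the receptor and adaptor genes over their Zcchc6+/+ mean was -0.43 in that array and 0.069 and -0.11 in the other Zcchc6-/- arrays, against 0.024, -0.13 and 0.11 in the Zcchc6+/+ arrays. Beside this stands the raised T cell marker level of the same array, 2.39 over the Zcchc6+/+ mean. The 17 macrophage markers were not lowest there as a list, with -0.035 in replicate 1 and -0.18 and -0.19 in replicates 2 and 3. Other marker lists in replicate 1 stood at -0.043 for B cells, 0.045 for neutrophils and 0.91 for airway epithelium. In replicate 2 airway epithelium was also at 0.84, while in the Zcchc6+/+ arrays it stood at -0.56, 0.53 and 0.034. The neutrophil markers had means of 0.27 and 0.28 in Zcchc6-/- replicates 2 and 3, but medians of -0.082 and 0.23. Zcchc6-/- replicate 2 was the highest array for 4 of these 12 genes and the lowest for 3, so the list did not move as a whole. The part that T cell RNA, or the wider spread of this array over all genes, has in the low receptor signals was not tested. In a lavage sample fewer macrophages and less RNA per macrophage cannot be told apart.

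**Figure D2:**
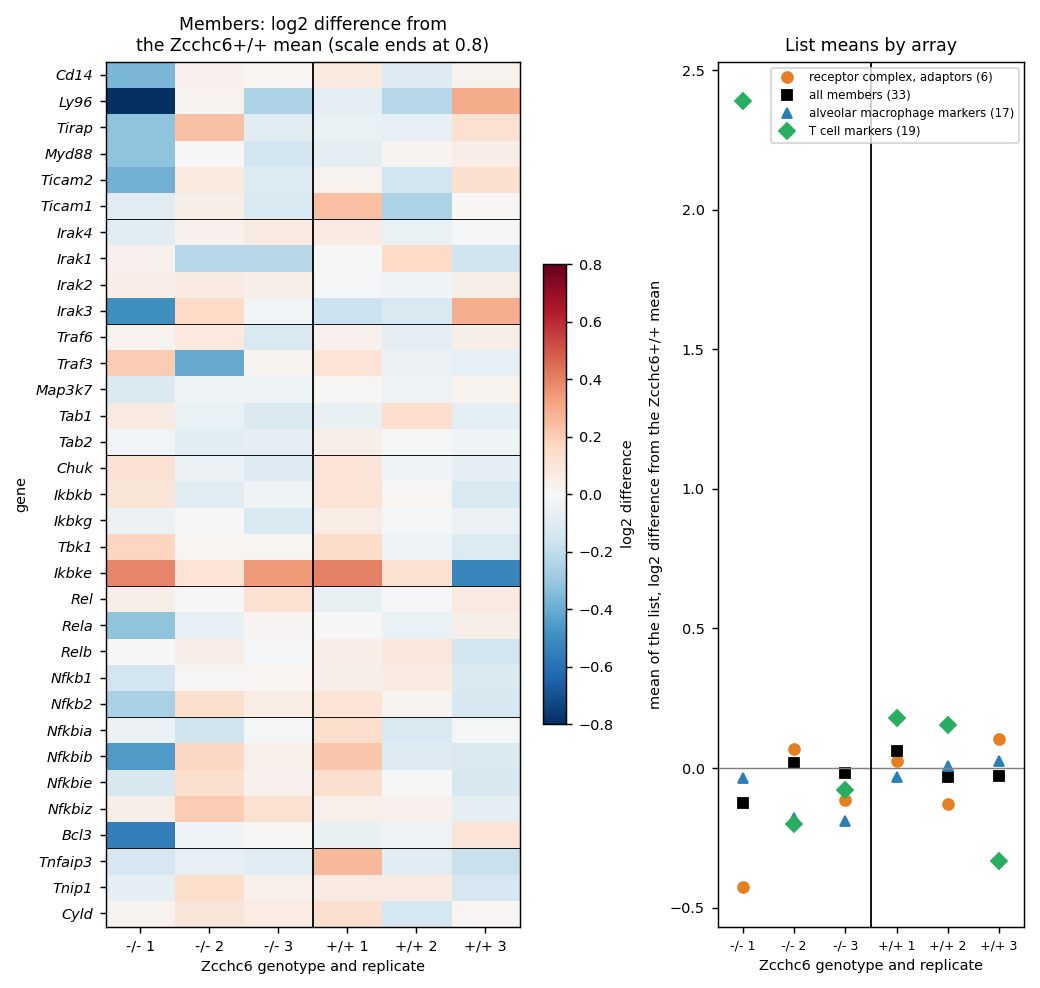
Left, log2 difference of each of the 33 members from its Zcchc6+/+ mean in each array, with blue below and red above it. Right, the mean of the same difference over the 6 receptor and adaptor genes, the 33 members, 17 alveolar macrophage markers and 19 T cell markers, with the log2 difference on the vertical axis and arrays on the horizontal axis. Zcchc6-/- replicate 1 has the lowest receptor and adaptor mean, -0.43, and the highest T cell marker mean, 2.39.

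The IRAK kinases relay the signal from MyD88, with IRAK4 acting first on IRAK1 and IRAK2, while IRAK3 (IRAK-M) holds the cascade back. Irak4 had a log2 fold change of 0.0090, or 0.055 without Zcchc6-/- replicate 1, and Irak2 of 0.056. Irak2 had the narrowest range of the members over the 6 arrays, 0.098, between 8.27 and 8.37. Irak1, an X-linked gene, had 7.31, 7.05 and 7.06 in Zcchc6-/- arrays against 7.28, 7.44 and 7.12 in Zcchc6+/+ arrays. Replicate 1 lay within the Zcchc6+/+ range, and the other Zcchc6-/- arrays lay below it. Its log2 fold change was -0.14 (limma, SE 0.13, adjusted p = 0.997), and -0.23 (limma, adjusted p = 0.886) without Zcchc6-/- replicate 1, where its p was the smallest of the members. Only Ly96 and Ikbke spread more widely over the arrays than Irak3, which had 7.79, 8.43 and 8.25 in Zcchc6-/- arrays against 8.10, 8.16 and 8.57 in Zcchc6+/+ arrays. Its log2 fold change of -0.12 became 0.067 without Zcchc6-/- replicate 1.

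Downstream of the IRAK kinases, the ubiquitin ligase genes and the TAK1 complex differed little in mean. All 5 means were lower in Zcchc6-/- macrophages, with log2 fold changes between -0.0053 for Traf6 and -0.063 for Map3k7, and none passed. Map3k7, which encodes TAK1, had 6.60, 6.68 and 6.67 in Zcchc6-/- arrays against 6.72, 6.67 and 6.74 in Zcchc6+/+ arrays. Tab2, which tethers TAK1 to ubiquitin chains, had 8.0, 7.94 and 7.95 in Zcchc6-/- arrays against 8.07, 8.01 and 7.99 in Zcchc6+/+ arrays. The genotypes overlapped narrowly for both genes, and the interval of each was -0.28 to 0.16. Traf3, needed for the interferon branch, varied more, and its lowest value of 5.67 was that of Zcchc6-/- replicate 2. Without Zcchc6-/- replicate 1 the Traf3 log2 fold change of -0.057 became -0.19. Tab1, the activating partner of TAK1, had a log2 fold change of -0.032, or -0.082 without that array.

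None of the IkB kinase genes passed. Log2 fold changes were -0.011 for Chuk (IKK-alpha), -0.0071 for Ikbkb (IKK-beta) and -0.056 for the X-linked scaffold gene Ikbkg (NEMO), and the intervals of these 3 lay between -0.28 and 0.25. Tbk1, the kinase that activates IRF3, had 0.067. Without Zcchc6-/- replicate 1 the values were -0.074 for Chuk, -0.060 for Ikbkb, -0.061 for Ikbkg and 0.013 for Tbk1. Ikbke, an inducible relative of TBK1, had 6.05, 5.77 and 6.0 in Zcchc6-/- arrays against 6.06, 5.78 and 5.14 in Zcchc6+/+ arrays. The groups overlapped, and the difference lay in the low value of Zcchc6+/+ replicate 3. Its log2 fold change of 0.28 was the highest of the members (limma, SE 0.23, adjusted p = 0.997).

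Of the NF-kB subunits, Rela, which encodes the p65 subunit, had 9.20, 9.47 and 9.55 in Zcchc6-/- arrays against 9.53, 9.48 and 9.58 in Zcchc6+/+ arrays. Replicate 1 was again the low array, and the log2 fold change of -0.12 (limma, SE 0.12, adjusted p = 0.997) became -0.016 without it. Rel, the subunit prominent in lymphocytes and activated macrophages, had 0.058, Relb of the noncanonical pathway had 0.016, and the precursor genes Nfkb1 and Nfkb2 had -0.043 and -0.024. Without Zcchc6-/- replicate 1, Nfkb1 had 0.014 and Nfkb2 0.094, both with the opposite sign.

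The inhibitors held the only member without overlap. Nfkbiz, which encodes the nuclear IkB-zeta and is needed for a second wave of NF-kB target genes, had 5.29, 5.45 and 5.37 in Zcchc6-/- arrays against 5.28, 5.27 and 5.17 in Zcchc6+/+ arrays. The groups were parted by less than the spread within either, and the log2 fold change was 0.13 (limma, SE 0.10, adjusted p = 0.997). Bcl3, another nuclear IkB protein, had 6.24, 6.76 and 6.80 in Zcchc6-/- arrays against 6.73, 6.75 and 6.89 in Zcchc6+/+ arrays. Its log2 fold change of -0.19 (limma, SE 0.16, adjusted p = 0.997) became -0.011 without Zcchc6-/- replicate 1. Nfkbia, the fast feedback inhibitor, had 8.82, 8.70 and 8.86 in Zcchc6-/- arrays against 9.0, 8.74 and 8.85 in Zcchc6+/+ arrays, and its log2 fold change was -0.071. The cytoplasmic inhibitor genes Nfkbib and Nfkbie had -0.084 and 0.011, or 0.10 and 0.081 without Zcchc6-/- replicate 1.

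The ubiquitin-editing brakes gave no call. Tnfaip3, which encodes A20, had 7.09, 7.16 and 7.13 in Zcchc6-/- arrays against 7.49, 7.14 and 7.05 in Zcchc6+/+ arrays. The Zcchc6-/- arrays were tight, and a single high Zcchc6+/+ array made the mean difference of -0.099 (limma, SE 0.13, adjusted p = 0.998). Its binding partner gene Tnip1 had a log2 fold change of 0.034, or 0.091 without Zcchc6-/- replicate 1, and the deubiquitinase gene Cyld of 0.060. The high Tnfaip3 array, Zcchc6+/+ replicate 1, was also the highest for Nfkbia and Nfkbie. Of all genes 13.4% were highest there, a background not limited to genes above the median signal. This array was the highest of the 6 for 11 of 33 members, or 33.3%. These were 5 of 14 members counted as NF-kB targets and 6 of 19 of the others, or 35.7% and 31.6%. Of 27 NF-kB target genes outside the pathway it was the highest for 5, or 18.5%. Cxcl2, a chemokine gene that draws neutrophils, was among these 5, with 3.55, 4.61 and 4.0 in Zcchc6-/- arrays against 5.06, 4.06 and 3.24 in Zcchc6+/+ arrays. It was singled out after its values were seen, and its mean signal lay below that of the median gene.

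**Figure D3:**
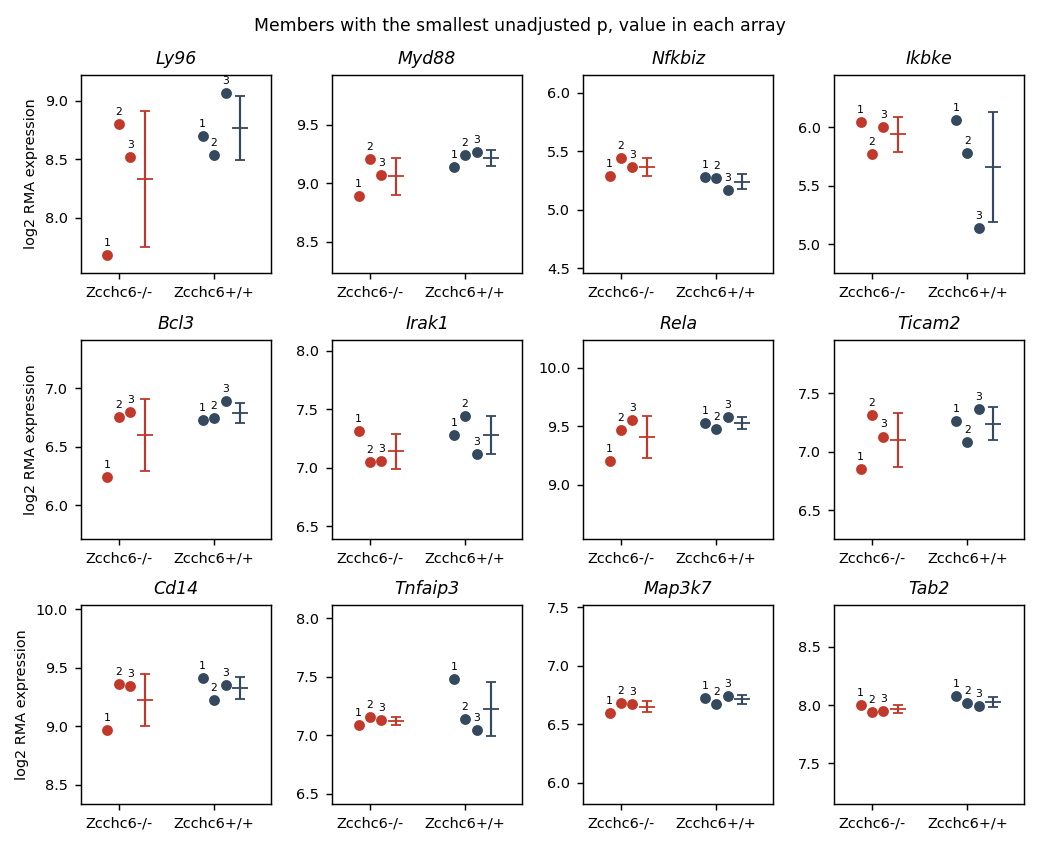
Log2 RMA expression (vertical axes, each of the same length in log2 units) of the 12 members with the smallest unadjusted p in each Zcchc6-/- array (left) and Zcchc6+/+ array (right). Points are arrays numbered by replicate, and bars are the mean and SD of 3 arrays. Zcchc6-/- replicate 1 is the lowest of the 6 arrays for Ly96, Myd88, Bcl3, Rela, Ticam2, Cd14 and Map3k7, and the genotypes part for Nfkbiz alone.

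Of the 33 members 23 had a lower mean in Zcchc6-/- macrophages, or 69.7%, against a background of 51.8% and of 52.1% among genes above the median signal. The count was 17 of 33 without Zcchc6-/- replicate 1 (background 50.8%), 16 of 33 without Zcchc6+/+ replicate 1 (background 51.4%) and 20 of 33 with the array medians centred (background 47.1%). Of the members counted as NF-kB targets 7 of 14 were lower, with a median of -0.0066, and of the others 16 of 19, with a median of -0.057. Without Zcchc6-/- replicate 1 the counts were 3 of 14 and 14 of 19, with medians of 0.061 and -0.038, so the even split of the targets rests on that array. Leaving out any 1 array, the targets ranged between 3 of 14 lower and, without Zcchc6-/- replicate 2, 10 of 14. The difference between targets and others was not tested.

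Genes around the members gave no call either. Of 16 Toll-like receptor and LPS-binding genes 0 passed in limma, 1 had an unadjusted p under 0.05 (6.25%, background 5.03%) and 6 had a higher mean. The genotypes did not overlap for 3 of the 16 (18.8%, background 10.2%), which were Tlr5 and Tlr6, both higher, and Unc93b1, lower. Tlr4, the receptor of the complex, stood at -0.014 on the same scale (SE 0.11). Tlr5, the flagellin receptor, had 9.08, 9.16 and 9.40 in Zcchc6-/- arrays against 8.93, 8.91 and 8.66 in Zcchc6+/+ arrays. The groups did not overlap, and the log2 fold change was 0.38 (limma, SE 0.13, adjusted p = 0.951). Unc93b1, which escorts endosomal Toll-like receptors, had -0.23 (limma, adjusted p = 0.997). In this list too Zcchc6-/- replicate 1 was the lowest array for 9 of 16 genes, against a background of 25.8%. Among them were the MD-2 relative gene Ly86, at 7.42 there and 7.56 to 8.35 elsewhere, and its receptor partner gene Cd180, at 7.72 there and 7.99 to 8.29 elsewhere.

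Of 30 further pathway genes 0 passed, 3 had an unadjusted p under 0.05 (10.0%, background 5.03%) and 6 did not overlap between genotypes (20%, background 10.2%). The low values of Zcchc6-/- replicate 1 were not shared by this list. That array was the lowest for 3 of the 30 genes (10.0%, background 25.8%) and for 7 of 27 NF-kB target genes (25.9%). Otud7b, a deubiquitinase of the noncanonical NF-kB pathway, stood at a log2 fold change of 0.40 (limma, SE 0.12, adjusted p = 0.902). The adaptor gene Traf5 had -0.39 (limma, SE 0.15, adjusted p = 0.981). Of 27 NF-kB target genes outside the pathway 0 passed, and 0 had an unadjusted p under 0.05 (background 5.03%). The genotypes failed to overlap for 0 of the 27 (background 10.2%). A lower mean was found for 12, and the median of the list was 0.020. Il1b, which encodes interleukin-1 beta, had 0.32 (SE 0.14) and Nos2, the inducible nitric oxide synthase gene, 0.24, each with an adjusted p of 0.997 from limma.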

How the data were processed

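Alveolar macrophage RNA of 3 Zcchc6-/- and 3 Zcchc6+/+ samples was hybridized to 1-colour arrays. The authors deposited log2 values per gene, made from the scanned arrays with RMA in affy 1.36.1 and R 2.15.1, with an Entrez Gene probe mapping from Brainarray. RMA corrects background, gives all arrays 1 distribution and fits 1 value per gene, so shifts shared by most genes are removed and changes near the floor are understated. Which genome build that mapping used was not given in the sources used here. RefSeq (GRCm38.p6) named 23740 of 25206 genes, and 1466 were tested unnamed. At most 0.298% of values were identical between a pair of arrays.

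Genotypes were compared over all genes with limma 3.58.1 in R 4.3.3 (lmFit, eBayes, no covariates, no filter, 4 residual and 3.47 prior degrees of freedom) and Benjamini-Hochberg adjustment. The procedure was tested on simulated data. Exact permutation of 3 against 3 cannot give a p under 0.1. The number of arrays limits the precision. The members and lists were chosen with earlier results of these data known. All 33 members are named, the 12 with the smallest p per array (others where 1 array sets the value), with the targeted gene, 2 sex markers, and the 2 members of smallest p, or those a result turns on, of related lists. Alternatives were a filter, trended, robust and unmoderated variances, array weights, a second quantile normalization, centring, a replicate block, Xist as covariate, leaving out each array, a looser threshold and naming by current symbol.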

Additional observations from a re-analysis of the deposited data

How the results depend on the processing

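No member and no gene of the Toll-like receptor, further pathway or NF-kB target lists was called by limma under any alternative tried. Over all 25206 genes the count was 0 too, except for 1 gene without Zcchc6-/- replicate 1. The absence of calls is thus shared by the whole table. Leaving out 1 array at a time, the median log2 fold change of the members ranged from -0.069 to 0.012, and was positive only without Zcchc6+/+ replicate 1. Members at an unadjusted p under 0.05 then numbered 0 to 1, against backgrounds of 3.55% to 6.49%. The 1 was Ly96 without Zcchc6-/- replicate 2 (log2 fold change -0.67, adjusted p = 0.759 from limma). In that fit the background was 6.49% of all genes, against 3.03% of the members. The low Zcchc6-/- replicate 1 was kept there. Members without overlap numbered 2 to 6, against backgrounds of 17.6% to 22.1%. With all 6 arrays the background was 10.2%, so overlap was rarer over all genes once an array was left out. The highest count was found without Zcchc6+/+ replicate 3 (background 18.9%) and the lowest without Zcchc6+/+ replicate 2 (background 17.6%). With a second quantile normalization 2 members did not overlap (background 10.5%). Between 0 and 7 uncalled members changed sign under a given alternative, and the filter and the variance settings could not change any sign. The deviations of same-numbered arrays from their genotype means correlated at 0.090, -0.23 and 0.046, and not every array correlated best with its own number. With 3 arrays per genotype, these correlations cannot tell whether the numbers pair the samples. With a replicate block 0 members were called and 0 had an unadjusted p under 0.05 (background 4.23%). In this balanced design a block cannot change a fold change. The median of -0.053 and the signs therefore stayed as they were and say nothing about pairing. Beyond these, with 3 arrays per genotype and a median standard error of 0.11, smaller differences of single members could not be resolved.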

Other observations

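Immediate early genes, which rise within minutes when macrophages are handled or stimulated, were read beside the members. Of 14 such genes 10 had a lower mean in Zcchc6-/- macrophages, the list median was -0.10 on the log2 scale, and 0 passed in limma, with 0 at an unadjusted p under 0.05. Egr2, a transcription factor of alveolar macrophages, and Dusp1, a phosphatase that ends stress kinase signals, stood at -0.25 and -0.39 (limma, adjusted p = 0.997 for both). Egr2 did not overlap between genotypes, nor did Fos, with a log2 fold change of -0.16, while the background of genes without overlap was 10.2%.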
